A study of Mus musculus with 12 samples.

Results

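The miR-148 and miR-152 family has 3 members in the mouse small RNA tables, mmu-miR-148a-3p, mmu-miR-148b-3p and mmu-miR-152-3p, and they were taken as a family, by name. They are 3 of 1374 mature miRNAs listed, or of 1422 with 48 predicted ones. Small RNA of 18 to 30 nt was sequenced from the prefrontal cortex (PFC) of adult male C57/BL6 mice taken 2 h after a conditioned place preference (CPP) test, in which an animal learns to seek the compartment where it received a drug. SS mice received saline only, CS mice cocaine at 20 mg/kg with saline, MS mice l-methionine at 1 g/kg (6.6 mmol/kg) for 10 days with saline, and MC mice l-methionine and cocaine at these doses. The study's text also gives a lower methionine dose in another place. Each group had 3 libraries, and each library was made from RNA pooled from 2 animals, so p-values measure the spread between pools. The question of the design was whether methionine, the precursor of the methyl donor of the cell, changes the response of the PFC to cocaine.

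A miRNA guides an Argonaute protein to mRNAs that pair with its seed, the bases near its 5′ end, and lowers their translation or stability. miRNAs with the same seed can act on the same sites and are treated as 1 family. The miR-148 and miR-152 family is known for sites in DNA methyltransferase mRNAs: Dnmt1, which copies methylation onto new DNA strands, has one in its 3′ UTR, and Dnmt3b, which sets new methylation, has one in its coding part.

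The mature sequences are shown because the seed defines the family and because the members differ so little that mapped reads may be split between them. They are the RefSeq sequences of GRCm38.p6, written 5′ to 3′, with the seed (bases 2 to 8) in capitals.
mmu-miR-148a-3p: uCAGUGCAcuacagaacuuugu
mmu-miR-148b-3p: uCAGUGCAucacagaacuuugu
mmu-miR-152-3p: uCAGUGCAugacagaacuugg

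All 3 members share 1 seed, and no other of the 1679 mature miRNAs in the RefSeq table has it. Counted from the 5′ end, mmu-miR-148a-3p differs from mmu-miR-148b-3p by C9U and U10C, with 20 of 22 bases the same. From mmu-miR-152-3p, which is 1 base shorter, it differs by C9U, U10G and U20G, with 18 of 21 bases the same. mmu-miR-148b-3p and mmu-miR-152-3p differ by C10G and U20G. Every difference therefore lies outside the seed. The study allowed 1 mismatch in a piRNA alignment step, and how its miRNA step treated reads that match several members is not given in the sources used here. The division of reads between mmu-miR-148a-3p and mmu-miR-148b-3p is therefore uncertain. So is that between mmu-miR-148b-3p and mmu-miR-152-3p, with 19 of 21 bases the same.

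The members come from 3 chromosomes. The mature mmu-miR-148a-3p lies at chr6:51269829-51269850 on the minus strand, in a hairpin that overlaps no other gene in GENCODE M21. The mature mmu-miR-148b-3p lies at chr15:103285185-103285206 on the plus strand, in an intron of Copz1. The mature mmu-miR-152-3p lies at chr11:96850439-96850459 on the plus strand, in an intron of Copz2. Copz1 and Copz2 encode paralogous zeta subunits of the COPI vesicle coat, and each is transcribed on the strand of its miRNA.

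The reverse complement of the seed, TGCACTG, was searched on the transcript strand in 1 transcript per gene (the one with the longest coding part) for 5 genes of the DNA methylation machinery. It was found 1 time in each of 4 genes and not in Dnmt3l, a cofactor of the new methylation enzymes. The sites are shown because they are the DNA letters that the shared seed could pair with, in capitals within 29 bases of GRCm38 transcript sequence.
Dnmt1, 3′ UTR: agagccccacgTGCACTGatgtttttaac
Uhrf1, 3′ UTR: ttttcagagagTGCACTGactgggtgtca
Dnmt3a, coding part: acatcctgtggTGCACTGaaatggaaagg
Dnmt3b, coding part: acgttttgtggTGCACTGagctcgaaagg

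Positions in the genome are those of the 29 bases. The Dnmt1 match begins at base 23 of a 3′ UTR of 312 bases (chr9:20907481-20907509, minus strand, exon 39 of 39). Of 1805 3′ UTRs within 20% of that length, 2.88% held the match. Uhrf1, which brings Dnmt1 to newly copied DNA, held it from base 613 of a 3′ UTR of 984 bases (chr17:56323104-56323132, plus strand, exon 17 of 17), as did 10.2% of 2541 like 3′ UTRs. In Dnmt3a, another enzyme of new methylation, the match lies in exon 22 of 23, and the 29 bases run on into exon 23 (chr12:3906856-3907606, plus strand, intron included), and 23.2% of 2601 coding parts of like length held the match. In Dnmt3b it lies in exon 23 of 24, and the 29 bases run on into exon 24 (chr2:153684450-153686258, plus strand, intron included), and 22.8% of 2785 did. Over all genes, 11.5% of 20619 3′ UTRs and 14.6% of 21877 coding parts held it. All 4 matches are followed by A, which extends them to TGCACTGA. How many like regions hold this longer match was not counted. A match is a description of letters, and neither these mRNAs nor DNA methylation was analysed here.

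In units of 1000000 counts, the library totals ran from 7.77 to 11.1 (mean 9.39, n = 12) and did not differ among the groups beyond the spread between libraries (exact permutation test of the F statistic, F = 1.77, p = 0.265), although without MC replicate 20 the p was 0.0381. Mature and predicted miRNAs took 56.1% to 67.9% of the counts. The neuronal markers miR-124-3p, miR-9-5p, miR-128-3p and miR-138-5p were present in every library, with a summed level of 102636 to 269550 CPM (counts scaled to a library total of 1000000). Their sum was 177137 to 269550 CPM in SS, 136411 to 242683 in CS, 121785 to 252598 in MS and 102636 to 143879 in MC. The library MC replicate 16 stood apart. Its deviations from the mean of the other libraries, over 345 miRNAs with a mean of at least 10 CPM, had an SD of 1.28 on the log2 scale, against 0.520 to 0.780 in the others. Its scaling factor (TMM, which aligns libraries on the bulk of their miRNAs) was 0.675, against 0.826 to 1.26. Values without it are therefore given beside the results it moves most. Clustering of 125 hairpin families also divided the libraries into sets that cross the groups. The number of sets, 3, was fixed in advance from earlier work on these data and is not a result. SS replicate 12 and CS replicates 8 and 9 formed 1 set, CS replicate 10 and MC replicates 16 and 17 another, and the remaining 6 libraries, all of MS among them, the third. The labels name no batch, and what the sets are was not tested.

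All 3 members were of modest abundance, and mmu-miR-148a-3p was the highest in most libraries. Over the 12 libraries its level was 48.8 ± 20.7 CPM (mean ± SD), that of mmu-miR-148b-3p was 34.2 ± 11.2 CPM and that of mmu-miR-152-3p was 31.9 ± 9.27 CPM. By mean level they ranked 226, 249 and 254 among the 1374 mature miRNAs. The members are of nearly the same length, so no length scaling was applied. Their summed counts over the 12 libraries were 5659, 3904 and 3612, and the level that 3 counts give in a library, 0.271 to 0.386 CPM, lies far below their lowest value.

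For mmu-miR-148a-3p, SS libraries 12, 13 and 14 held 30.5, 31.9 and 57.6 CPM, and CS libraries 8, 9 and 10 held 64.8, 41.9 and 37.3 CPM. MS libraries 3, 4 and 23 held 81.7, 64.1 and 40.6 CPM, and MC libraries 16, 17 and 20 held 7.34, 60.2 and 67.3 CPM. The highest library was MS replicate 3 and the lowest by far was MC replicate 16, and all 4 groups overlapped. The SS mean was 40.0 ± 15.3 CPM, the CS mean 48.0 ± 14.7, the MS mean 62.1 ± 20.6 and the MC mean 44.9 ± 32.7 CPM (SD, n = 3 each). Without replicate 16 the MC level was 63.7 ± 4.99 CPM (SD, n = 2), next to that of MS.

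The level of mmu-miR-148b-3p was 27.5, 32.4 and 40.6 CPM in SS, and 46.7, 40.6 and 22.5 CPM in CS, in the same order of libraries. In MS it was 41.0, 38.5 and 29.9 CPM, and in MC 7.59, 47.0 and 35.6 CPM. MC replicate 16 was again the lowest library and the other 11 lay between 22.5 and 47.0 CPM, with all groups overlapping. SS libraries averaged 33.5 ± 6.65 CPM, CS libraries 36.6 ± 12.6, MS libraries 36.5 ± 5.81 and MC libraries 30.1 ± 20.3 CPM (SD, n = 3), or 41.3 ± 8.05 CPM for MC without replicate 16 (SD, n = 2).

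The third member, mmu-miR-152-3p, held 28.8, 29.7 and 32.4 CPM in SS, and 52.5, 41.0 and 14.5 CPM in CS. It held 36.7, 28.8 and 31.4 CPM in MS, and 22.8, 33.7 and 30.6 CPM in MC. Its highest and lowest libraries were both CS, so that the CS range enclosed every other library, and MC replicate 16 was not its lowest. The SS libraries averaged 30.3 ± 1.88 CPM, the CS libraries 36.0 ± 19.5, the MS libraries 32.3 ± 4.06 and the MC libraries 29.0 ± 5.64 (mean ± SD, n = 3).

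**Figure D1:**
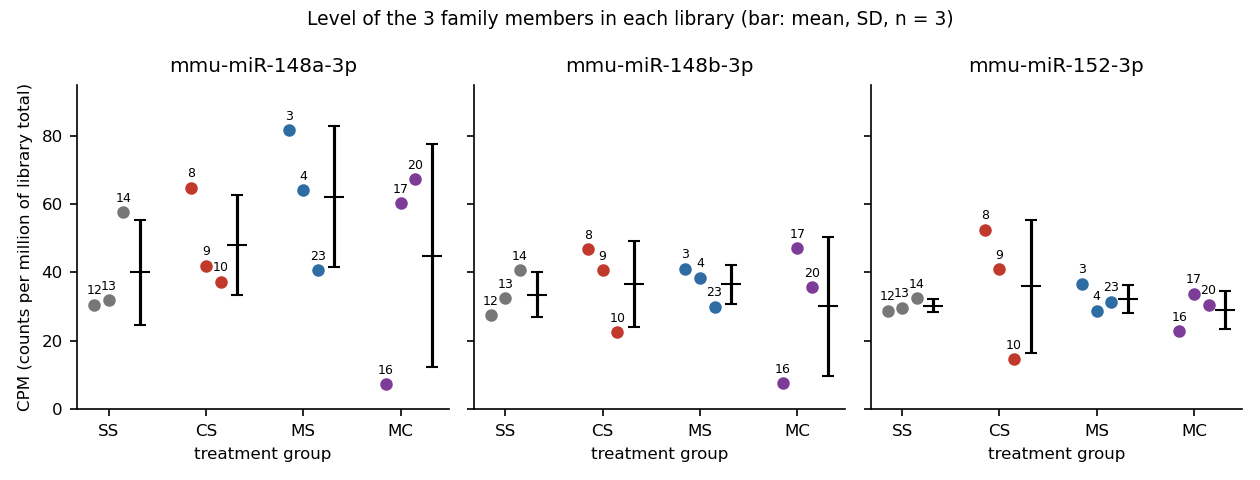
Level of the 3 members in each library (y axis, counts per 1000000 of the library total, from 0) by treatment group (x axis). Each point is 1 library with its replicate number, and the black bars are the group mean and SD (n = 3). MC replicate 16 is at 7.34 CPM for mmu-miR-148a-3p and 7.59 CPM for mmu-miR-148b-3p but at 22.8 CPM for mmu-miR-152-3p, and the groups overlap in every panel.

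Ratios of counts within 1 library do not depend on the depth or scaling of that library. mmu-miR-148a-3p exceeded mmu-miR-148b-3p in 10 of 12 libraries, with a median ratio of 1.37 and a range from 0.966 to 1.99. On the log2 scale the mean ratio was 0.44 ± 0.36 (SD, n = 12), larger than its spread. The ratio was 1.11, 0.985 and 1.42 in the SS libraries and 1.99, 1.67 and 1.36 in the MS libraries, so the lowest MS ratio lay below the highest SS ratio. In the CS libraries it was 1.39, 1.03 and 1.66, and in the MC libraries 0.966, 1.28 and 1.89.

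mmu-miR-148a-3p also exceeded mmu-miR-152-3p in 11 of 12 libraries. The exception was MC replicate 16, with a ratio of 0.322, and the others ran from 1.02 to 2.56. For mmu-miR-148b-3p over mmu-miR-152-3p the ratio was above 1 in 7 of 12 libraries and its log2 mean was 0.04 ± 0.57, so these neighbours in the order did not differ beyond their spread. Over the libraries other than MC replicate 16 the log2 mean was 0.19 ± 0.26 (SD, n = 11). In MC replicate 16 mmu-miR-152-3p made 60.4% of the counts of the family, against 19.6% to 33.2% in the other libraries. Its mean share over the 12 libraries, MC replicate 16 included, was 29.8% ± 10.8 (SD).

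**Figure D2:**
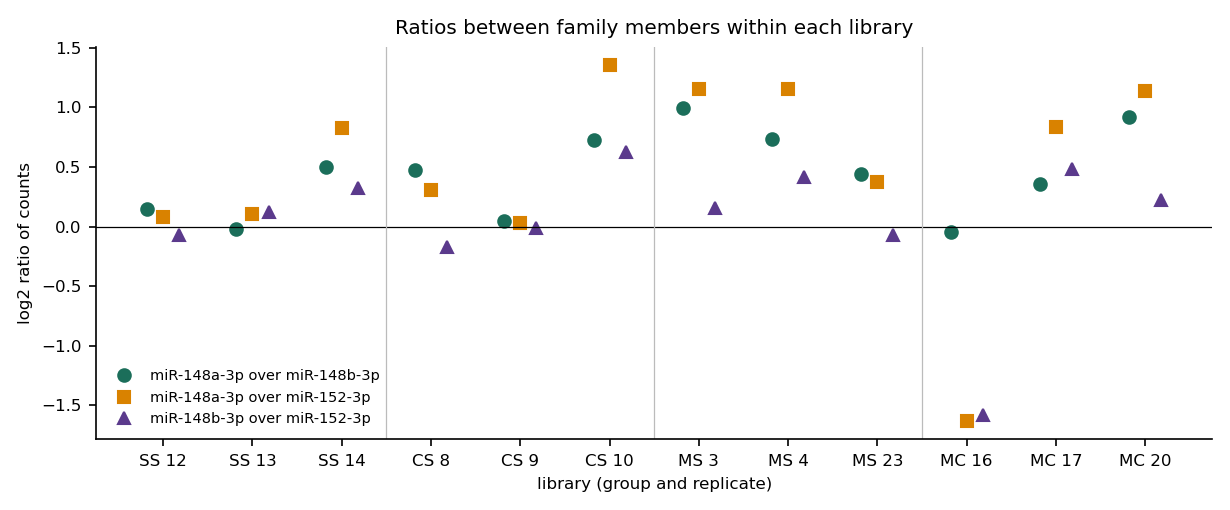
Log2 ratio of counts between members (y axis) in each of the 12 libraries (x axis, group and replicate), with grey lines between groups and a black line at equal counts. In MC replicate 16 both ratios over mmu-miR-152-3p are near -1.6 (-1.63 and -1.58), while mmu-miR-148a-3p over mmu-miR-148b-3p is at -0.05.

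The other strand of each hairpin was nearly absent. Over all libraries mmu-miR-148a-5p had 12 counts, mmu-miR-148b-5p 5 and mmu-miR-152-5p 5, which is 0.212% of both arms for mmu-miR-148a (95% exact interval 0.109 to 0.369), 0.128% for mmu-miR-148b (0.0415 to 0.298) and 0.138% for mmu-miR-152 (0.0449 to 0.322). These intervals cover counting error only. The 5p arms were seen in 5, 5 and 3 libraries and were too low to be tested. The highest count was 5, for mmu-miR-148a-5p in MS replicate 23. Reads set down to the hairpin family of these miRNAs rather than to a mature miRNA (RF00248, a separate entry of the tables) were also few, 142 in all. SS libraries had 13, 7 and 6 of them, CS libraries 15, 23 and 1, MS libraries 19, 18 and 15, and MC libraries 5, 3 and 17, or 1.24 ± 0.750 CPM (SD, n = 12). CS replicate 10, which had the lowest mmu-miR-152-3p, had the lowest hairpin count. By count the MS libraries lay above all SS libraries, but scaled to CPM the groups overlapped, with SS at up to 1.58 CPM and MS from 1.44 CPM. No test was run on these low counts.

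Cocaine alone was set against saline in CS vs. SS, and no member passed the test. The quasi-likelihood test of edgeR was adjusted by Benjamini-Hochberg over the 780 miRNAs that reached 5 counts in 3 or more libraries, and a miRNA was called if its adjusted p was not above 0.05. By this rule 0 of 3 members were called, as were 0% of all miRNAs tested. The log2 fold change was -0.01 for mmu-miR-148a-3p (SE 0.51, 95% interval -1.11 to 1.10, edgeR adjusted p = 0.998). It was -0.16 for mmu-miR-148b-3p (-1.04 to 0.72) and -0.07 for mmu-miR-152-3p (-0.83 to 0.69). With total counts in place of TMM all 3 values were above 0 (0.26, 0.13 and 0.25), a scaling that moved the median of all miRNAs by 0.26 in this comparison. With library set as a covariate the values were 0.48, 0.04 and -0.24, and 0 of 3 members were called. The intervals thus leave room for about a 2-fold change of mmu-miR-148a-3p in either direction.

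Methionine alone was compared with saline in MS vs. SS, where mmu-miR-148a-3p had its largest difference of the methionine comparisons and still passed no test. Its log2 fold change was 0.41 (SE 0.51, interval -0.70 to 1.51, edgeR adjusted p = 0.872), and it was 0.49 without MC replicate 16 (SE 0.29, adjusted p = 0.418). For mmu-miR-148b-3p the value was -0.12 (interval -0.99 to 0.76) and for mmu-miR-152-3p -0.14 (-0.90 to 0.62), both of which turned above 0 with total counts (0.12 and 0.09), a scaling that moved the median of all miRNAs by 0.24. Within the set that holds 2 SS and 3 MS libraries the values were 0.25, -0.24 and -0.17 in the order of the family. Again 0 of 3 members were called by edgeR and 0% of all miRNAs were called. DESeq2 called 13 of 780 miRNAs in this comparison (1.67%), and edgeR on its 6 libraries alone called 3 of 714 (0.42%), with 0 of 3 members in either. MS replicate 3, the library with the highest mmu-miR-148a-3p, also had 2494 CPM of miR-122-5p, the main miRNA of liver, against at most 173 CPM in the other libraries. Without that library the log2 fold change of mmu-miR-148a-3p was 0.11, and the part of miR-122-5p in it was not tested.

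Among the cocaine-treated mice, methionine was examined in MC vs. CS. The log2 fold changes were -0.13 for mmu-miR-148a-3p (SE 0.51, edgeR adjusted p = 0.928), -0.29 for mmu-miR-148b-3p (SE 0.40, adjusted p = 0.767) and -0.12 for mmu-miR-152-3p (SE 0.35, adjusted p = 0.905). No member was called (0 of 3) and 0% of all miRNAs were called. Without MC replicate 16 the first 2 values turned to 0.34 and 0.11, with intervals of -0.37 to 1.05 and -0.48 to 0.70, and that of mmu-miR-152-3p was -0.20. The sign of mmu-miR-152-3p changed with other libraries left out, to 0.11 without CS replicate 8 and 0.05 without CS replicate 9, and with library set as a covariate, to 0.41. mmu-miR-148a-3p came to 0.000748 without CS replicate 8. The direction of each member in MC vs. CS thus changed with 1 library left out.

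The remaining pair, MC vs. MS, shows cocaine on a background of methionine. mmu-miR-148a-3p had a log2 fold change of -0.55 (SE 0.51, interval -1.66 to 0.56, edgeR adjusted p = 0.776), mmu-miR-148b-3p of -0.33 (-1.20 to 0.55) and mmu-miR-152-3p of -0.05 (-0.81 to 0.70). 0 of 3 members and 0% of all miRNAs were called. When MC replicate 16 was left out the values were -0.11, 0.03 and -0.16, each less than its SE from 0.

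Over all libraries, methionine against no methionine gave log2 fold changes of 0.14 for mmu-miR-148a-3p (SE 0.36, interval -0.65 to 0.92), -0.20 for mmu-miR-148b-3p (SE 0.28) and -0.13 for mmu-miR-152-3p (SE 0.24), with 0 of 3 members and 0% of all miRNAs called. Without MC replicate 16 the value of mmu-miR-148a-3p was 0.42 (SE 0.21, interval -0.06 to 0.89). Its edgeR p of 0.0798 (edgeR adjusted p = 0.325) was the smallest of any member in any comparison and alternative run. In that fit 19 of 773 miRNAs (2.46%) were called, and DESeq2 over 12 libraries called 16 of 780 (2.05%), with 0 of 3 members in either. Cocaine against no cocaine gave -0.28, -0.24 and -0.06 (SE 0.36, 0.28 and 0.24) in the order of the family, again with 0 of 3 members and 0% of all miRNAs called. With MC replicate 16 left out these became -0.04, -0.04 and -0.10.

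The interaction, the difference between the effect of methionine in cocaine-treated and in saline-treated mice, was -0.54 for mmu-miR-148a-3p (SE 0.71, interval -2.10 to 1.03), -0.17 for mmu-miR-148b-3p (-1.41 to 1.07) and 0.02 for mmu-miR-152-3p (-1.05 to 1.09). No member (0 of 3) and 0% of all miRNAs were called. For mmu-miR-148a-3p it was -0.15 without MC replicate 16 (SE 0.43), -0.24 without MS replicate 3 and -0.89 without MC replicate 20, and leaving out MC replicate 16 brought mmu-miR-148b-3p to 0.14 and mmu-miR-152-3p to -0.14. The intervals over 12 libraries are the widest, and total counts moved the median of all miRNAs by -0.34 here and the value of mmu-miR-152-3p to -0.40. A test of any difference among the 4 groups gave edgeR adjusted p-values of 0.887, 0.889 and 0.975, with 0 of 3 members and 0% of all miRNAs called. Without MC replicate 16 that test called 3 of 773 miRNAs (0.388%), and DESeq2 over 12 libraries called 13 (1.67%), with 0 of 3 members in either. At an unadjusted p under 0.05, edgeR found from 22 (CS vs. SS) to 103 (methionine over all libraries) of the 780 miRNAs in these 8 comparisons, and no member was among them in any. The biological coefficient of variation, the spread between libraries beyond counting error, was 0.456, 0.377 and 0.339 for the members, against a median of 0.387 over all miRNAs tested. The comparisons share libraries and are not independent.

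**Figure D3:**
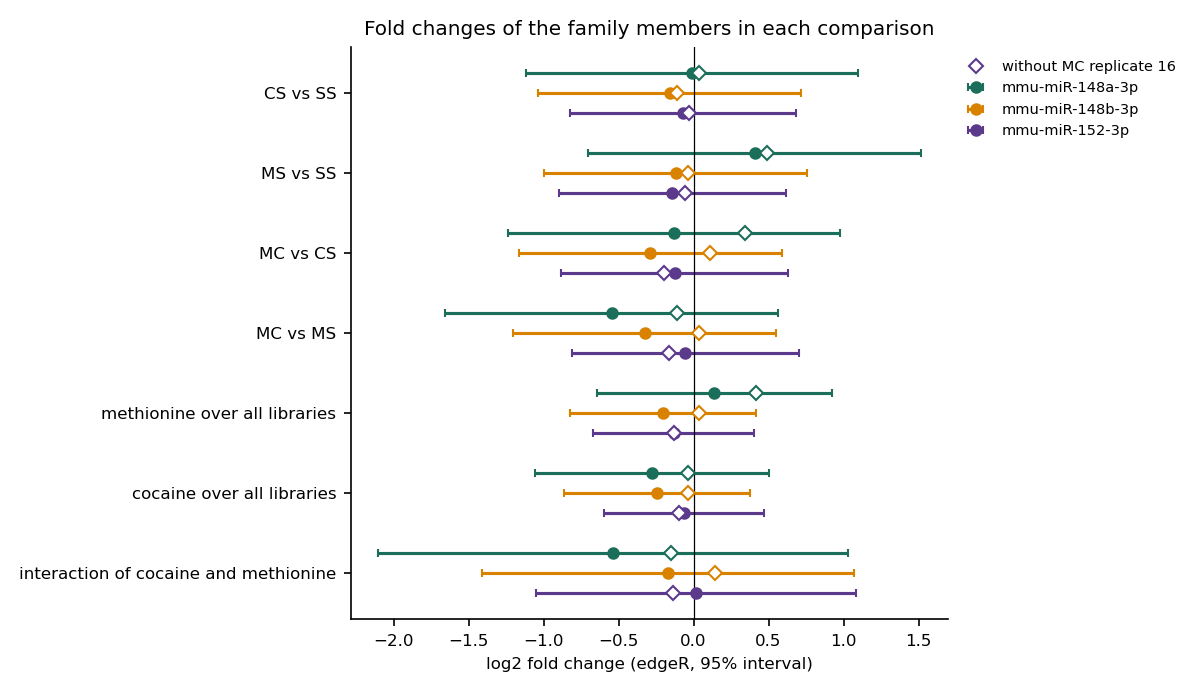
Log2 fold change (x axis) of each member in 7 comparisons (y axis). Filled points and bars are the edgeR estimate and 95% interval over 12 libraries, and open diamonds are the estimate without MC replicate 16. Every interval includes 0, and the miR-148 members of MC vs. CS move across 0 (to 0.34 and 0.11) when that library is left out.

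MC replicate 16 separated the miR-148 members from mmu-miR-152-3p. With TMM scaling, the deviation from the mean of the other 11 libraries was -2.10 for mmu-miR-148a-3p and -1.57 for mmu-miR-148b-3p on the log2 scale, whereas it was 0.15 for mmu-miR-152-3p. Only 1.45% of the 345 miRNAs deviated further down than mmu-miR-148a-3p, and 9.86% further than mmu-miR-148b-3p. In this library the deviation rose with the share of G and C in the mature sequence (r = 0.597 across 297 miRNAs, 86.1% of the 345, which share this library and are not independent replicates). In the other libraries that r lay between -0.354 and 0.0575. The miR-148 members hold 40.9% G and C, and mmu-miR-152-3p holds 47.6%, the median of these miRNAs. The summed level of the red blood cell markers miR-451a, miR-144-3p and miR-486a-5p was 387 CPM in this library against 1496 to 3972 CPM in the others, and that of the endothelial and vessel wall markers miR-126a-3p, miR-126a-5p, miR-143-3p and miR-145a-5p was 3787 CPM against at least 9742 CPM. The choroid plexus markers summed to 684 CPM against at least 1278 CPM and the neuronal markers to 102636 CPM against at least 121785 CPM. In MC as a group the neuronal sum was at most 143879 CPM, against at least 177137 CPM in SS. The share of all miRNAs whose MC and SS libraries do not overlap was not counted. The neuronal markers did not move alike in MC replicate 16. Their TMM-scaled deviation was -1.08 for miR-9-5p, 0.15 for miR-128-3p and 0.91 for miR-138-5p, and that of miR-124-3p is not given. The oligodendrocyte markers (961 CPM), leukocyte or microglia markers (1217 CPM), liver marker (140 CPM) and muscle markers (42.9 CPM) lay within the range of the other libraries. Single markers within these sums were low all the same. The TMM-scaled deviation was -2.08 for miR-219a-5p and -1.93 for miR-338-3p (oligodendrocyte). It was -1.61 for miR-142a-3p and -1.69 for miR-223-3p (leukocyte or microglia). Deviations of the other markers in these sums are not given. These marker sums are CPM without TMM, unlike the deviations above. The TMM factor of this library, 0.675, was the lowest, so TMM scaling would raise its sums relative to the others. The part of base composition or of these cells in the low miR-148 levels was not tested, and fewer cells of a type and less RNA per cell cannot be told apart in such tissue libraries.

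**Figure D4:**
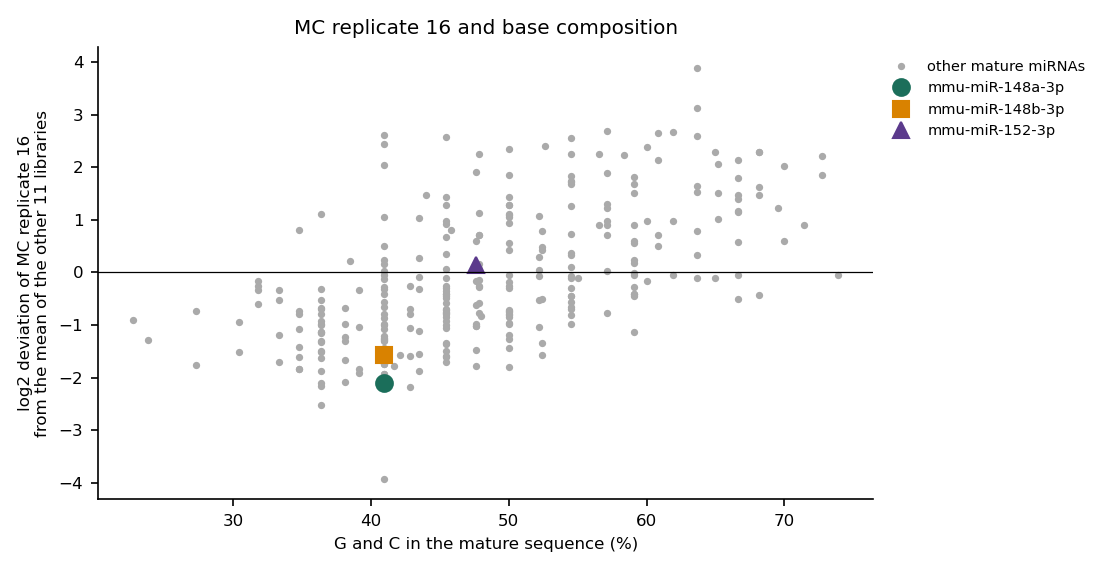
Deviation of MC replicate 16 from the mean of the other 11 libraries (y axis, log2 scale) against the share of G and C in the mature sequence (x axis, percent) for 297 miRNAs. The 3 members are among them (large symbols), and the others are grey. The miR-148 members lie at 40.9% and below -1.5, and mmu-miR-152-3p lies at 47.6% and near 0 (0.15).

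The miRNAs whose levels ran most like those of each member were found by Pearson's r of log2 TMM-scaled CPM over the 12 libraries, among 345 miRNAs, as a description. For mmu-miR-148a-3p they were mmu-miR-181c-5p (r = 0.90), mmu-miR-344c-3p (0.89) and mmu-miR-744-3p (0.88). All 3 were lowest in MC replicate 16, and without it r was 0.57, 0.56 and 0.44. For mmu-miR-148b-3p they were mmu-miR-136-3p (0.94), mmu-miR-27b-3p (0.92) and mmu-miR-344c-3p (0.92), also lowest in MC replicate 16, with r of 0.67, 0.72 and 0.68 without it. For mmu-miR-152-3p they were mmu-miR-15b-5p (0.78), mmu-miR-194-5p (0.75) and mmu-miR-16-5p (0.72), with r of 0.85, 0.83 and 0.79 without that library. Spearman's rho was lower than r for all of them over 12 libraries, at 0.78, 0.65 and 0.65 for the first member, 0.69, 0.78 and 0.80 for the second and 0.55, 0.62 and 0.31 for the third. Ranked by rho instead, 0, 1 and 0 of the 3 names of each member would be named again, and by r without MC replicate 16, 0, 0 and 2, so the names depend on the measure and on that library. mmu-miR-344c-3p was thus named for both miR-148 members, and none of these names was shared with mmu-miR-152-3p. The points share libraries, depth and scaling.

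Other miRNAs known for DNA methyltransferase targets were set beside the family: miR-29a-3p, miR-29b-3p and miR-29c-3p, known for Dnmt3a and Dnmt3b, and miR-101a-3p, miR-101b-3p, miR-143-3p, miR-185-5p, miR-342-3p and miR-126a-3p. All 9 passed the filter and 0 of 9 were called by edgeR in any of the 8 comparisons over 12 libraries, where 0% of all miRNAs were called. Their median log2 fold change in MS vs. SS was 0.37, that of the 3 family members -0.12 and that of all miRNAs tested -0.03. Leaving out MC replicate 16 gave 0.44, -0.03 and 0.05. In methionine over all libraries the medians were 0.05, -0.13 and 0.06, and without that library 0.26, 0.04 and 0.01, so the median of the family changed sign.

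Of these, mmu-miR-29a-3p and mmu-miR-29c-3p had the larger differences. mmu-miR-29a-3p ranged from 1632 to 2244 CPM in SS and from 4692 to 7983 CPM in MS, and mmu-miR-29c-3p from 422 to 515 CPM in SS and from 1134 to 1905 CPM in MS, so the groups did not overlap. CS, without methionine, also lay above SS for both, at 2864 to 3669 CPM of mmu-miR-29a-3p and 793 to 925 CPM of mmu-miR-29c-3p. Their log2 fold changes in CS vs. SS were 0.49 (SE 0.30) and 0.62 (SE 0.35), with an edgeR adjusted p = 0.994 for each. In MC, replicates 17 and 20 held 5877 and 5476 CPM of mmu-miR-29a-3p and 1592 and 1415 CPM of mmu-miR-29c-3p. MC replicate 16 held 1532 and 303 CPM of them, below every SS library. MS and SS likewise did not overlap for mmu-miR-101a-3p (54.5 to 71.3 against 28.7 to 42.4 CPM) or mmu-miR-101b-3p (82.8 to 128 against 43.6 to 56.8 CPM). CS again lay above SS for both, at 49.6 to 91.8 CPM of mmu-miR-101a-3p and 83.5 to 95.1 CPM of mmu-miR-101b-3p. MC replicates 17 and 20 held 96.3 and 67.7 CPM of mmu-miR-101a-3p and 123 and 87.1 CPM of mmu-miR-101b-3p. MC replicate 16 held 15.4 and 17.4 CPM of them, again below every SS library. These CPM carry no TMM scaling, and total counts in place of TMM moved the median of all miRNAs by 0.24 in MS vs. SS and 0.26 in CS vs. SS. The share of all miRNAs whose groups do not overlap was not counted. For mmu-miR-101a-3p and mmu-miR-101b-3p the log2 fold changes in MS vs. SS were 0.60 (SE 0.39, edgeR adjusted p = 0.685) and 0.66 (SE 0.41, edgeR adjusted p = 0.681). In CS vs. SS they were 0.62 (SE 0.39) and 0.52 (SE 0.41), with an edgeR adjusted p = 0.994 for each. By edgeR 0% of all miRNAs were called in MS vs. SS or CS vs. SS over 12 libraries. In MS vs. SS the log2 fold changes of mmu-miR-29a-3p and mmu-miR-29c-3p were 1.32 (SE 0.30) and 1.35 (SE 0.36), with an edgeR adjusted p = 0.315 for each. Without MC replicate 16 they were 1.40 and 1.43 and both were called by edgeR (adjusted p = 0.00859, with 0.906% of 773 miRNAs called), and DESeq2 called both over 12 libraries (adjusted p = 0.0099 and 0.0326). miR-29a-3p and miR-29c-3p are near-identical, so reads may be split between them. In the same fit without MC replicate 16, the family members had values of 0.49, -0.03 and -0.06 and none was called. Whether the miR-29 members differ from the miR-148 and miR-152 family in their response was not tested.

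**Figure D5:**
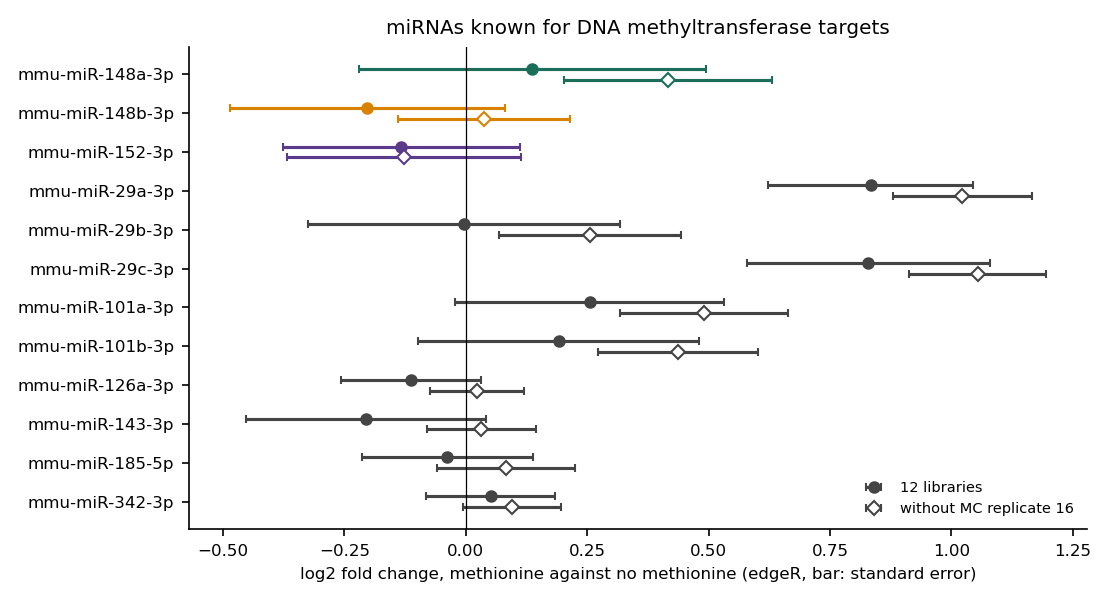
Log2 fold change of methionine against no methionine over all libraries (x axis) for the 3 family members (coloured) and 9 other miRNAs known for DNA methyltransferase targets (grey). Filled circles use 12 libraries, open diamonds leave out MC replicate 16, and bars are standard errors. mmu-miR-29a-3p and mmu-miR-29c-3p lie at 0.83 and 0.83, or 1.02 and 1.05 without that library, and the family members between -0.20 and 0.42.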

How the data were processed

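The study's methods describe a filter on read quality, adapters and length, and mapping with AASRA. The submitters' notes name Bowtie and mm10. The authors deposited, for every small RNA, a raw read count and a TPM, which is that count scaled to a library total of 1000000. TPM was only checked against the counts. Groups and replicate numbers came from the sample titles. CPM was computed the same way. Of 1422 miRNAs listed, the 780 that passed the filter were tested by quasi-likelihood in edgeR 4.0.16 (R 4.3.3), with DESeq2 1.42.0 as an alternative. All 12 libraries were in 1 fit, with TMM factors on the library totals and a term for each group (8 residual degrees of freedom). The filter asked for 5 or more counts in 3 or more libraries, and a call for a Benjamini-Hochberg adjusted p not above 0.05. Other steps used Python 3.11.15. Logs used a pseudocount of 0.5. The steps were tested on simulated data. Among 66 pairs of libraries none matched within sampling noise (smallest chi-square per degree of freedom 143.9). Library sets were found by clustering 125 hairpin families, cut at a fixed number of 3 sets, and cross the groups, and no batch is given in the labels. Sequences came from RefSeq and GENCODE M21. Named miRNAs are the members, their 5p arms and hairpin entry, the list of methyltransferase-targeting miRNAs, and the 3 most alike miRNAs of each member. The members are a seed family named as such and no measured value entered the rule, but members and lists were chosen with earlier results of these data known. Alternatives changed the tool, scaling, filter, libraries or covariate, and leaving MC replicate 16 out of the likeness was added after seeing the data.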

Additional observations from a re-analysis of the deposited data

How the results depend on the processing

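Of 471 alternative values for the 3 members over 8 comparisons, 0 were called. Of the 414 that have a direction, 364 kept it and 50 changed sign. For mmu-miR-148a-3p in CS vs. SS the log2 fold change was 0.000639 with DESeq2, 0.000662 with its size factors, 0.26 with total counts, 0.0489 with TMM from all small RNAs, 0.0366 with at least 10 counts, 0.00101 with no filter, 0.0438 in 6 libraries and 0.48 with library set as a covariate. Total counts also turned mmu-miR-148b-3p and mmu-miR-152-3p in CS vs. SS to 0.13 and 0.25, in MS vs. SS to 0.12 and 0.0921, and mmu-miR-152-3p to 0.0482 for cocaine and -0.40 for the interaction, which was -0.0760 with TMM from all small RNAs, -0.0388 with at least 10 counts and -0.0173 with no filter. With library set as a covariate, mmu-miR-148a-3p was -0.0347 for methionine and 0.21 for cocaine, mmu-miR-148b-3p 0.0401 in CS vs. SS, 0.0185 in MC vs. MS and 0.0293 for cocaine, and mmu-miR-152-3p 0.41 in MC vs. CS, 0.18 in MC vs. MS and 0.20 for methionine. Within the 5 libraries of MS and SS in 1 set, MS vs. SS was 0.25, -0.24 and -0.17. Leaving out 1 library at a time gave, for mmu-miR-148a-3p, -0.17 to 0.24 (CS vs. SS), -0.48 to 0.34 (MC vs. CS) and -0.0396 to 0.42 (methionine). For mmu-miR-148b-3p it gave -0.30 to 0.00487 (CS vs. SS), -0.67 to 0.11 (MC vs. CS), -0.71 to 0.0346 (MC vs. MS), -0.40 to 0.0374 (methionine) and -0.55 to 0.14 (interaction). For mmu-miR-152-3p it gave -0.30 to 0.23 (CS vs. SS), -0.27 to 0.00307 (MS vs. SS), -0.44 to 0.11 (MC vs. CS), -0.20 to 0.0771 (MC vs. MS), -0.18 to 0.0830 (cocaine) and -0.30 to 0.25 (interaction). The cause of these changes of sign was not tested. All miRNAs called numbered 13 (MS vs. SS), 16 (methionine) and 13 (any difference) with DESeq2, and 3 (MS vs. SS) in 6 libraries. Without 1 library they numbered 0 to 7, 0 to 19 and 0 to 3, the highest each without MC replicate 16. The methyltransferase-targeting miRNAs called numbered 2, 1 and 1 with DESeq2, 2 in 6 libraries, and 0 to 2 in each without 1 library. Per 1000000 miRNA counts, the mean levels were 77.7, 54.3 and 50.8. The p for library totals ran from 0.0381 (without MC replicate 20) to 0.413. No paired analysis was possible because the groups share no replicate number. With 3 libraries a group, 7.34 to 81.7 CPM in 1 miRNA and a scaling that moved medians by up to 0.34 limit what could be seen, and the smallest detectable change was not estimated.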
